A study of Mus musculus with 2 samples.

Results

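The guanylate-binding proteins (GBPs) and the immunity-related GTPases (IRGs) are 2 families of GTPases of cell-autonomous defence, and 10 of their genes were followed here in mouse skin fibroblasts given IL-17A. The 10 were taken by gene symbol from a listed set: the GBP genes Gbp2, Gbp3, Gbp5, Gbp7 and Gbp9 and the IRG genes Ifi47, Irgm1, Irgm2, Igtp and Iigp1. All 10 were among the 19674 gene rows of the count table, and all 10 were among the 13534 genes called measured, those with at least 50 counts when the libraries are added. The cells were a wild-type line labelled MDFB, given vehicle in 1 library and IL-17A in the other. Both libraries carry the same batch label, and neither the dose of IL-17A, the time of exposure nor the origin of the line beyond skin is given. Total counts were 24427027 with vehicle and 23559416 with IL-17A. With 1 library in each group there was no replicate to set a difference against, and no test was made.

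Both families are best known as genes switched on by interferon-gamma, in part through Irf1. GBPs are large GTPases of the dynamin superfamily that gather on pathogen vacuoles and on bacteria in the cytosol and promote inflammasome activation there. IRGs are smaller GTPases that load onto such vacuoles and break them. The regulatory IRGs Irgm1, Irgm2 and Igtp sit on the cell's own membranes and hold the effector IRGs, such as Ifi47 and Iigp1, in their inactive state.

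Upstream stretches of 6 members are shown because they carry the interferon motif through which these genes are known to be controlled, in members with large and with small differences. Each runs over the 180 bases before the start in RefSeq's annotation of GRCm38.p6, 5′ to 3′ on the strand of the gene, and capitals mark matches to the interferon-stimulated response element (ISRE, searched as GAAA, then any 2 bases, then GAAA) and to the 10-letter consensus of NF-kB. On the plus strand of chromosome 3 these are chr3:142496754-142496933 for Gbp5, chr3:142620483-142620662 for Gbp2 and chr3:142559864-142560043 for Gbp3. On chromosome 11 they are chr11:48871421-48871600 on the minus strand for Irgm1, and chr11:58199376-58199555 and chr11:58214797-58214976 on the plus strand for Igtp and Irgm2.
Gbp5: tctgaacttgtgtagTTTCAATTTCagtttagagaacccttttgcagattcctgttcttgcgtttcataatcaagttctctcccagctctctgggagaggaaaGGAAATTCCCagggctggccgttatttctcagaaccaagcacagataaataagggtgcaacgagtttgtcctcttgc
Gbp2: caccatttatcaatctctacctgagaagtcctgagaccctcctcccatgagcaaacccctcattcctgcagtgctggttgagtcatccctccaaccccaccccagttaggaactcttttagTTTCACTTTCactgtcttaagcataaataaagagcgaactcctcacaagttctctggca
Gbp3: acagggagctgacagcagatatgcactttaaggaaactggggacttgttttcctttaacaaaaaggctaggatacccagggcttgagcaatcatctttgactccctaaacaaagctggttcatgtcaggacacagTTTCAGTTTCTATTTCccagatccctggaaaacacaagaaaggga
Irgm1: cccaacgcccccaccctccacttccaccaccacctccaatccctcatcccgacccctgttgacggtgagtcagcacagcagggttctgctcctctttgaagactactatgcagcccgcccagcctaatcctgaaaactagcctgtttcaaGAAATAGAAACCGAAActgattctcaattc
Igtp: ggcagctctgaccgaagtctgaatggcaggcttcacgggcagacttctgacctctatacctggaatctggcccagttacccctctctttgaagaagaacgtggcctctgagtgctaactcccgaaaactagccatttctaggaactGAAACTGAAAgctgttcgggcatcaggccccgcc
Irgm2: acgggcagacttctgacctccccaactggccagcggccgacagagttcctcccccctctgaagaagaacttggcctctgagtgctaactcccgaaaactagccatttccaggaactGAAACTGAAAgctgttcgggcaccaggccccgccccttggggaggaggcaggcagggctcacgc

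An ISRE match lay in the window of 7 of the 8 members whose window in the RefSeq promoter table was used. Each window reaches from 250 bases before the start to 50 after it. These 7 were Gbp2, Gbp3, Gbp5, Gbp7, Irgm1, Irgm2 and Igtp, and the eighth, Ifi47, held none in its window. The 8 members had 9 windows, of which 7 held the motif, since the window at the second start of Gbp3 held none. Of all 32851 windows in the table, on both strands, 3.44% held the motif. Among other family genes with a window, it was found in 1 of 1 GBP gene and in 5 of 8 IRG genes. In Gbp2, Gbp3 and Gbp7 the ISRE nearest to the start lay at positions -59 to -50, -39 to -30 and -53 to -44 from the start, whereas in Gbp5 it lay at -165 to -156. Gbp3 and Irgm1 each held a pair of overlapping ISRE matches, which appear above as 1 run of capitals. The stretches of Igtp and Irgm2 shared an unbroken run of 38 bases, and with their ISRE matches aligned they were identical at 111 of 150 bases.

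The other motifs were each found in some of the members. A match to the NF-kB consensus was found in 2 of the 8, Gbp5, at positions -77 to -68, and Gbp2, at 8 to 17 and so past the start and beyond the stretch shown, against 8.46% of all windows. The motif was found in 0 of the 4 IRG members with a window. It was also found in 0 of 8 other IRG genes and in 0 of 1 other GBP gene with a window. These windows are too few to set apart from that share. The interferon-gamma activated site (searched as TTCNNNGAA) was found in Gbp5, Gbp7, Igtp and Irgm2, against 8.30% of all windows. The AP-1 motif (TGANTCA, 7.81% of windows) was found in Gbp2 and Irgm1, and a C/EBP motif (TTNNGCAA, 10.8% of windows) in Gbp3 and Ifi47. Motifs of different kinds did not overlap in the windows of the members. Among other family genes with a window, the interferon-gamma activated site was found in 4 of 8 IRG genes and 0 of 1 GBP gene. The matches describe letters only, and none was tested for binding.

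**Figure D1:**
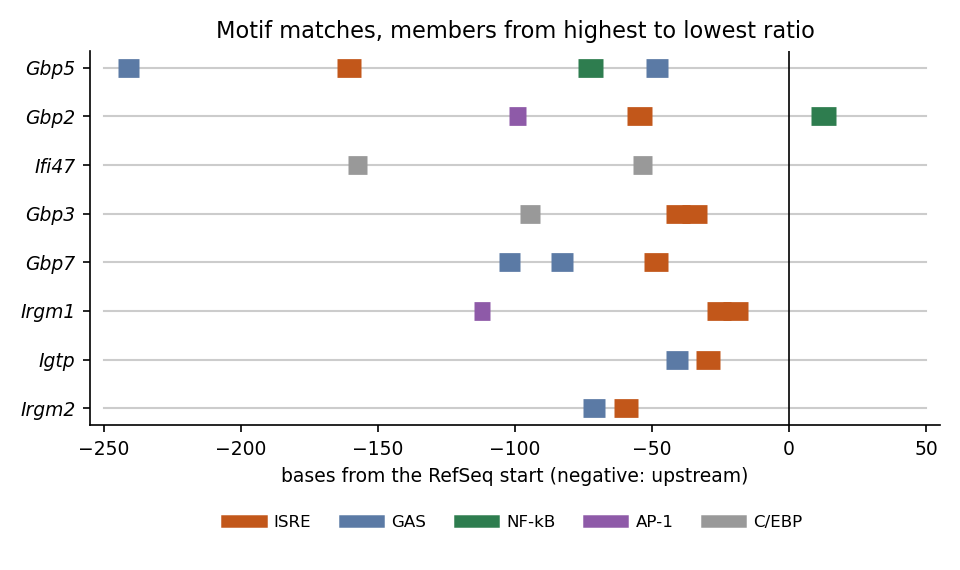
Positions of motif matches in the promoter windows of 8 members, ordered from the highest ratio of IL-17A over vehicle (Gbp5) to the lowest (Irgm2). The horizontal axis is the distance in bases from the RefSeq start, and for Gbp3 the first of its starts is drawn. The ISRE (orange) is found in 7 of 8 members and the NF-kB consensus (green) in Gbp5 and Gbp2.

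In the IL-17A library the GBP transcripts were higher and the IRG transcripts were divided. Of the 10 members, 5 were at least 2-fold higher, namely Gbp5, Gbp2, Gbp9, Ifi47 and Gbp3, and 0 were at least 2-fold lower. The background over all measured genes was 5.19% past that limit upward and 3.69% downward. At a limit of 1.5-fold, 7 members were higher and 0 lower, beside 10.1% and 8.25% of measured genes, and at 3-fold 4 were higher and 0 lower, beside 2.51% and 1.62%. With a minimum of 200 summed counts 3 members were higher and 0 lower, beside 4.42% and 2.40%, and with no minimum 5 and 0, beside 7.86% and 6.70%. The median log2 ratio of the 10 was 1.14, beside 0.0015 over all measured genes. Ratios compare CPM, the counts over library sizes scaled by the TMM method, and their 95% intervals cover counting error only. A change in the number of expressing cells and a change in RNA per cell cannot be told apart in such bulk libraries.

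**Figure D2:**
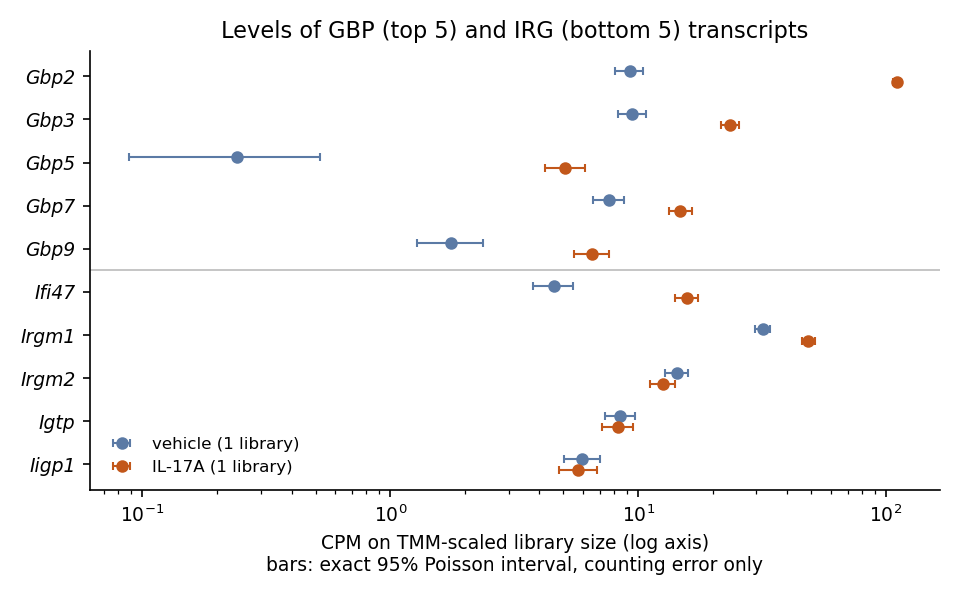
Level of each member in the vehicle (blue) and IL-17A (orange) library, in CPM on a log axis, with exact 95% Poisson intervals for counting error. The intervals are apart for all 5 GBP genes and for Ifi47 and Irgm1, and overlap for Irgm2, Igtp and Iigp1.

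Gbp2 accounted for most of the added GBP signal. This GBP, which gathers on pathogen vacuoles, had 231 vehicle counts and 2550 IL-17A counts, or 9.24 and 111 CPM. Its level was 12.0-fold (95% counting interval 10.5 to 13.8) higher, rank 68 from the top among the measured genes. It held 9.88% (exact Clopper-Pearson interval 8.70 to 11.2) of the counts of the 10 members with vehicle and 44.0% (42.8 to 45.3) with IL-17A. Summed over the 10 members the level went from 93.4 to 252 CPM, 2.69-fold higher, and without Gbp2 from 84.2 to 141 CPM, 1.67-fold higher.

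Gbp5, which promotes assembly of the NLRP3 inflammasome, was nearly undetected with vehicle. It had 6 counts there and 117 with IL-17A, or 0.240 and 5.08 CPM. The ratio of 21.2-fold carried a wide interval, 9.45 to 58.9, which held that of Gbp2 whole, so the order of these members was not resolved by counting. With a prior count of 2 added, the log2 ratio of Gbp5 went from 4.41 to 3.999.

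The remaining GBP members differed less. Gbp9 went from 44 to 150 counts (1.76 to 6.52 CPM), 3.71-fold (95% counting interval 2.63 to 5.31) higher. Gbp3 went from 236 to 540 counts (9.44 to 23.5 CPM), 2.49-fold (2.13 to 2.91) higher. Gbp7, which had 190 and 341 counts (7.60 and 14.8 CPM), lay just inside the limit at 1.95-fold (1.63 to 2.34) higher. Gbp3 was thus the member just past the 2-fold limit and Gbp7 the one just short of it, and their intervals overlapped. The 5 GBP members together went from 28.3 to 161 CPM, 5.68-fold (5.24 to 6.17) higher.

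Among the IRG members, Ifi47, an effector IRG also called Irgd, was the 1 past the limit. It had 114 and 361 counts (4.56 and 15.7 CPM), 3.44-fold (95% counting interval 2.78 to 4.29) higher. The other effector IRG, Iigp1, also called Irga6, which is the best-studied vacuole-disrupting IRG, had 149 and 132 counts (5.96 and 5.74 CPM). Its log2 ratio was -0.055, with an interval from -0.40 to 0.29. The intervals of these effectors did not overlap.

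The regulatory IRGs lay within 2-fold. Irgm1, the most abundant member with vehicle, had 797 and 1118 counts (31.9 and 48.6 CPM), 1.52-fold (95% counting interval 1.39 to 1.67) higher. Irgm2 had 358 and 290 counts (14.3 and 12.6 CPM), a log2 ratio of -0.18 (-0.41 to 0.044). Igtp, also called Irgm3, had 212 and 191 counts (8.48 and 8.30 CPM), a log2 ratio of -0.030 (-0.32 to 0.26). The intervals of Irgm2 and Igtp overlapped each other and that of Iigp1 and all held 0, while that of Irgm1 lay above them. The 5 IRG members together went from 65.2 to 90.9 CPM, 1.39-fold (1.31 to 1.49) higher, with a median log2 ratio of -0.030.

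**Figure D3:**
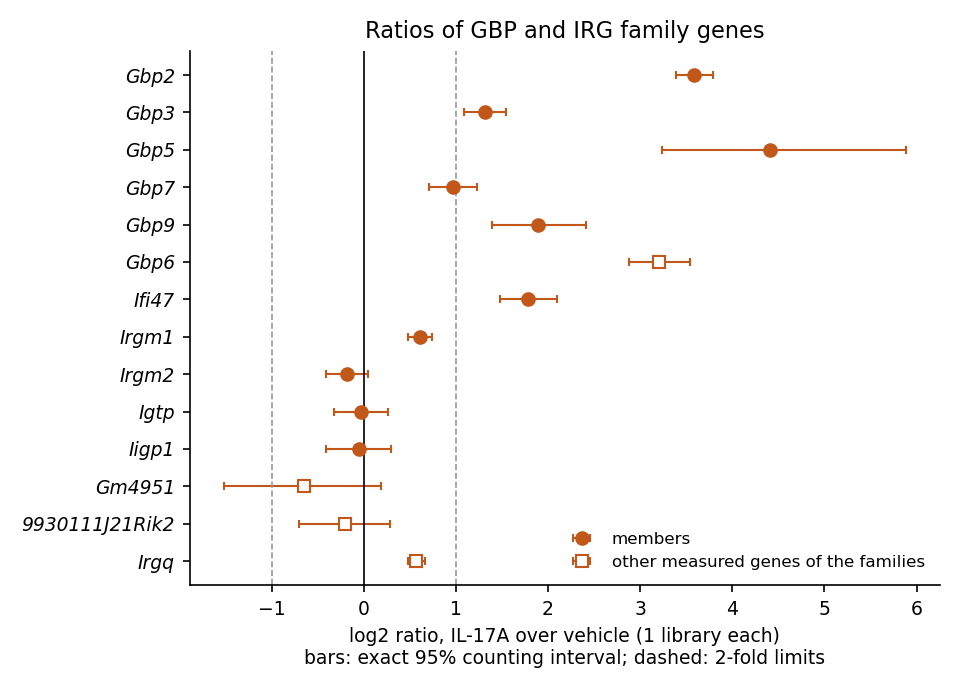
Log2 ratio of IL-17A over vehicle for the 10 members (filled circles) and the 4 other measured genes of the GBP and IRG families (open squares), with exact 95% counting intervals and dashed 2-fold limits. Gbp6 stands with Gbp2 and Gbp5 above 3, and Irgm2, Igtp and Iigp1 stand at 0 within their intervals.

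In order of their ratios, neighbours with overlapping intervals were Gbp5 and Gbp2, then Gbp9 and Ifi47, Ifi47 and Gbp3, Gbp3 and Gbp7, Gbp7 and Irgm1, and the 3 IRGs at the bottom. The interval of Gbp2 was separate from that of Gbp9, and that of Irgm1 from that of Igtp, while within the order between them Gbp9 and Irgm1 were also separate. Gbp5 and Gbp2 exceeded 99.7% and 99.5% of measured genes in log2 ratio, Gbp9 and Ifi47 98.1% and 97.9%, Gbp3 96.5%, Gbp7 94.6% and Irgm1 90.4%. Igtp, Iigp1 and Irgm2 exceeded 45.4%, 42.1% and 26.9%.

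**Figure D4:**
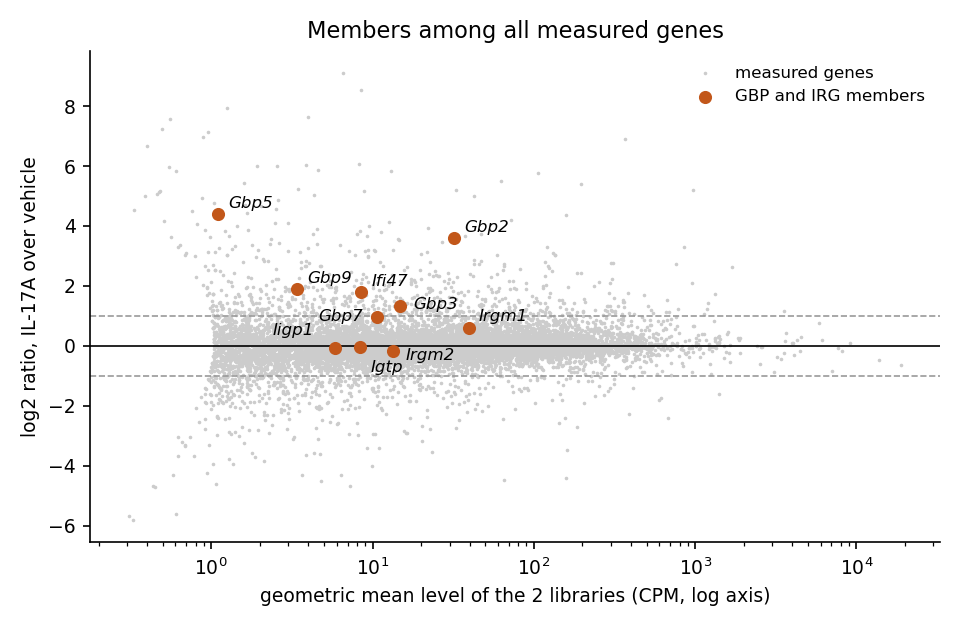
Log2 ratio of IL-17A over vehicle against the geometric mean level of both libraries, in CPM on a log axis, for the 13534 measured genes (grey) and the 10 members (orange), with dashed 2-fold limits. Gbp2 and Gbp5 stand far above the bulk of genes of their level, while Iigp1, Igtp and Irgm2 lie inside it.

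Levels between members were compared per kilobase of annotated exon, since a longer transcript gives more counts. With vehicle the IRGs Irgm1, Igtp and Irgm2 stood highest, at 5.49, 4.19 and 3.88 CPM per kilobase, followed by Gbp2 at 3.67 and Gbp3 at 2.89. The counting intervals of Igtp, Irgm2 and Gbp2 overlapped, so their order was not resolved. With IL-17A Gbp2 stood highest, at 44.0 CPM per kilobase, followed by Irgm1 at 8.36, Gbp3 at 7.19 and Ifi47 at 6.34. Gbp5 stood at 0.036 and 0.766 CPM per kilobase, the lowest in both libraries by this length, though with IL-17A its counting interval overlapped that of Iigp1. Dividing by the longest annotated transcript in place of all exons gave 12.7 for Irgm1, 8.85 for Ifi47 and 8.75 for Gbp3 with IL-17A, which exchanged the last pair. By that length Gbp5 stood at 0.064 with vehicle and 1.35 with IL-17A, above Gbp9 at 1.29, which was then the lowest. With IL-17A the counting intervals of Ifi47 and Gbp3 overlapped, as did those of Gbp5 and Gbp9, so neither order was resolved. Irgm1 then stood at 8.32 with vehicle, and Iigp1 at 1.91 with vehicle and 1.84 with IL-17A, in place of 1.02 and 0.985.

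The members lie in clusters of related genes, by the GENCODE M21 annotation of GRCm38, the assembly also called mm10. On the plus strand of chromosome 3, Gbp5 lies at 142493978 to 142522344, Gbp7 at 142530342 to 142550149, Gbp3 at 142560026 to 142573209 and Gbp2 at 142620602 to 142638008. Gbp9 lies in the cluster on the minus strand of chromosome 5, at 105077630 to 105139539. On chromosome 11, Irgm1 lies at 48861968 to 48871683 on the minus strand and Ifi47 at 49076587 to 49096974 on the plus strand, and Igtp at 58199556 to 58207591 shares exons with Irgm2 at 58199618 to 58222782. Iigp1 lies at 60376027 to 60392634 on chromosome 18.

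Genes of other families beside the clusters mostly stood within 2-fold, as did most measured genes. Within 250 kilobases of the member clusters lay 26 other measured protein-coding genes, of which 2 were at least 2-fold higher and 0 lower. The shares over all measured genes were 5.19% higher and 3.69% lower. Beside the chromosome 3 cluster, where the 4 GBP members ranged from 0.96 to 4.41, the 4 other genes ranged from -0.40 to 0.44 on the log2 scale. Beside the chromosome 5 cluster, which holds Gbp9, the 3 other genes were all above 0, from 0.31 to 0.93. The 2 higher neighbours, named after their values were seen, were Smim3, beside Iigp1, at 1.45, and the olfactory receptor gene Olfr56, at 1.63 from 25 to 71 counts. Olfr56 shares exons with Ifi47 on the same strand in the annotation, so their counts are not independent.

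Reads shared among copies touch these counts, since the treatment of reads with several alignments is not given in the sources used here. Of the stretches of 50 bases in their annotated transcripts, Gbp7 shared 12.7% with another gene, mostly a pseudogene, Igtp 11.8%, Gbp9 8.05%, Irgm2 7.83%, Ifi47 4.81% and Gbp3 3.75%. Gbp2, Iigp1, Gbp5 and Irgm1 shared 2.03%, 1.69%, 1.44% and 0.379%. Over stretches of 100 bases the shares were 10.01% for Gbp7, 5.16% for Igtp and 3.01% for Irgm2, and lower for each other member. Exons of Gbp9 overlapped those of Gbp4 and Gbp8 on the same strand, and those of Igtp overlapped those of Irgm2. Igtp and Irgm2 summed gave a log2 ratio of -0.12, and Gbp3 and Gbp7 summed gave 1.17.

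Of the 17 GBP and IRG genes outside the 10 that were in the table, 4 were measured. Of these 1 was at least 2-fold higher, beside 5.19% of all measured genes. Gbp6, in the chromosome 5 cluster beside Gbp9, went from 84 to 711 counts (3.36 to 30.9 CPM), a log2 ratio of 3.20 (95% counting interval 2.87 to 3.55). Irgq, a divergent member of the IRG family, stood at 0.57 (0.48 to 0.66), the tandem IRG gene 9930111J21Rik2 at -0.20 (-0.70 to 0.29) and Gm4951 at -0.65 (-1.52 to 0.19). Of those under the minimum, named after their values were seen, Gbp2b, Gbp8 and Gbp10 had 0 counts in both libraries, Gbp4 had 5 and 5, Gbp11 6 and 10, and Tgtp2 10 and 9. A count of 0 allows up to 3 counts, or 0.120 CPM in the vehicle and 0.130 CPM in the IL-17A library. Of the very large inducible GTPases, a related interferon-inducible family, 3 genes were in the table and 0 were measured.

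The genes that carry the interferon-gamma signal to the members were mostly higher or within 2-fold. Of 15 genes of this receptor and its signalling, 13 were measured, 4 passed 2-fold upward and 0 downward, and the median log2 ratio was 0.74. Over all measured genes 5.19% passed it upward and 3.69% downward, and the median was 0.0015. The kinase Jak2, which is bound to the receptor, stood at 2.22 (95% counting interval 2.16 to 2.27). The feedback inhibitors Socs3 and Socs1 stood at 2.01 and 1.36. Irf1, a transcription factor known to bind ISRE motifs, stood at 1.83 (1.72 to 1.95). Its part in the ratios of the members was not tested. Irf1 went from 31.5 to 112 CPM. The receptor chains Ifngr2 and Ifngr1 stood at 0.88 and 0.74, and Nlrc5, the activator of MHC class I genes, at 0.96. The receptor-bound kinase Jak1 stood at -0.22 and the transcription factor Irf8 at -0.32. Ptpn2, Ptpn6 and Irf2 stood at 0.45, 0.35 and 0.34, and Batf2 and Ciita were under the minimum. None of the 21 interferon ligand genes on the list, Ifng among them, had a row in the table, so the ligands were not analysed here.

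Other interferon-induced genes are given beside the 4 of 5 GBP members and 1 of 5 IRG members that passed 2-fold upward. The shares of all measured genes past 2-fold were 5.19% upward and 3.69% downward. Of 21 measured interferon-gamma response genes of other families, 10 passed 2-fold upward and 1 downward, and their median was 0.90. Cxcl10, a chemokine for T cells, stood at 3.36, the adhesion molecule Icam1 at 2.72, the checkpoint ligand Cd274 at 2.66 and the protease inhibitor Serpina3g at 2.52. Of 21 measured type I interferon-stimulated genes, 0 passed it upward and 3 downward, and their median was -0.19. Usp18, which restrains the type I receptor, stood at -1.52, the antiviral synthetase genes Oas2 and Oasl1 at -1.43 and -1.14, and Ifi44 at -0.81. The ISRE was found in 11 of the 19 genes of the latter list with a promoter window and in 3 of 17 of the former. Over all windows the share was 3.44%, and a gene can have more than 1 window. Of the 7 genes of the type I receptor and its signalling, 0 passed 2-fold in either direction, with Ifnar2 and Ifnar1 at 0.90 and 0.79, Tyk2 at 0.41 and Stat2 at -0.63.

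**Figure D5:**
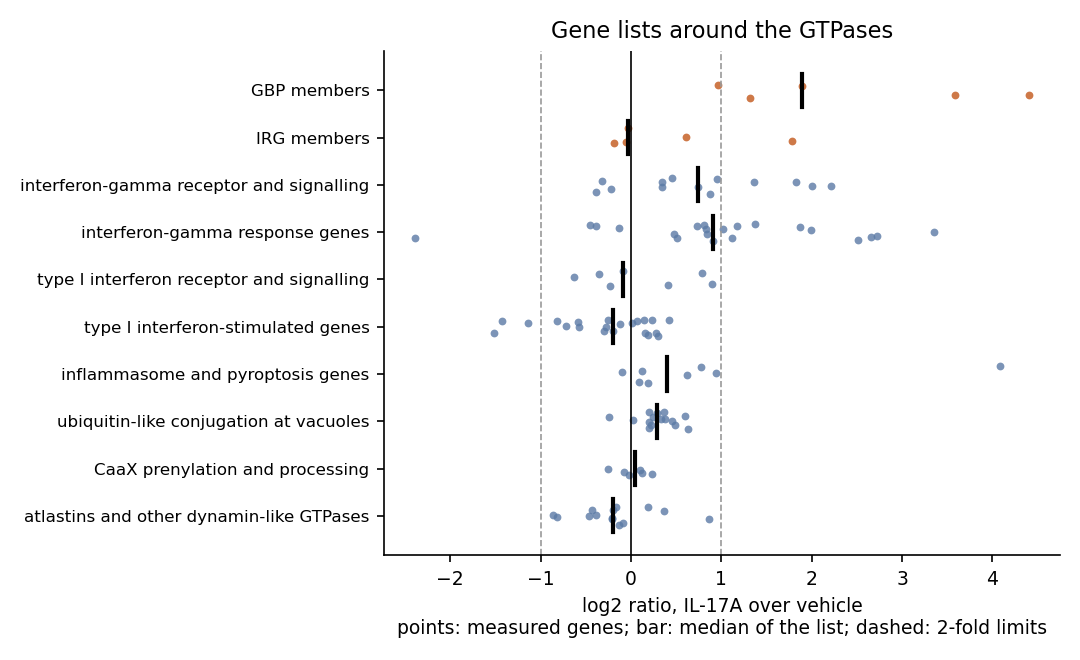
Log2 ratio of IL-17A over vehicle for each measured gene of 10 lists, with the list median as a bar and dashed 2-fold limits. The GBP members have a median of 1.89, the interferon-gamma response genes 0.90 and the type I interferon-stimulated genes -0.19.

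Genes for partners of the GTPases mostly stood within 2-fold, as did most measured genes. Of all measured genes, 5.19% passed it upward and 3.69% downward. Of 15 genes listed for the ubiquitin-like conjugation that directs GBPs and IRGs to vacuoles, receptors among them, 0 passed 2-fold in either direction. Of these 15, 14 lay above 0, beside 6802 of all 13534 measured genes, and their median was 0.29. The autophagy receptor Sqstm1 stood at 0.63, the antibody receptor Trim21 at 0.59, and the ubiquitin-like proteins Gabarapl1 and Map1lc3b at 0.49 and 0.45. Of 8 measured inflammasome and pyroptosis genes, 1 was at least 2-fold higher, the sensor Nlrp3 at 4.08 (95% counting interval 3.33 to 4.94), from 15 to 234 counts. Casp4, which senses cytosolic lipopolysaccharide on GBP coats, stood at 0.94, Zbp1 at 0.77 and the pore-forming Gsdmd at 0.62. Of 6 genes for prenylation and processing of CaaX proteins, which anchors some GBPs in membranes, 0 passed 2-fold, with Fntb and Icmt at -0.25 and 0.24 and Zmpste24 and Rce1 at 0.13 and 0.11. Of 14 atlastins and other dynamin-like GTPases, relatives of the GBPs that shape cell membranes, 0 passed 2-fold, with a median of -0.20 and with Ehd3 and Ehd2 at 0.87 and -0.87, Dnm3 at -0.81 and Atl1 at -0.47.

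The cells carried fibroblast transcripts in both libraries, with all 12 fibroblast markers measured and a summed level of 60498 CPM with vehicle and 45476 with IL-17A. Their levels differed in both directions: Dcn, a matrix proteoglycan, stood at 2.62 on the log2 scale and was at least 2-fold higher, Col3a1, Col1a1 and Vim stood at -0.82, -0.64 and -0.59, and Pdgfra at -0.057. Their part in the ratios of the members was not tested. Macrophage and dendritic markers were also present, 11 of 14 measured and 14 of 14 above 0 in both libraries, with a summed level of 222 CPM with vehicle and 304 with IL-17A, led by Lyz2 at 153 and 227 CPM. Among those picked with their values known, Csf1r, Adgre1 and Ptprc stood at 0.099, -0.070 and 0.14 on the log2 scale, Itgam and Cd14 at 0.96 each, Mrc1 at -0.63 and Clec7a at 3.27. Of 11 T and NK cell markers in the table, 9 were at 0 in both libraries, Cd3e and Nkg7 among them, and Trac went from 102 to 40 counts. Endothelial and keratinocyte markers summed to 7.40 and 3.28 CPM in the vehicle and to 7.04 and 4.13 CPM in the IL-17A library. The part of macrophage transcripts in the GBP ratios was not tested.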

How the data were processed

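Bulk RNA was sequenced from 1 vehicle and 1 IL-17A library, by a stranded Illumina mRNA preparation, per the labels' protocols. The authors deposited raw counts per gene symbol, made with STAR and featureCounts on mm10, per the submitters' processing notes. Versions, annotation, strand setting and the treatment of shared reads were not given in the sources used here.

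Library sizes were scaled by TMM in edgeR 4.0.16 under R 4.3.3 over the whole table. CPM and ratios were taken with no test, as no group held a second library. Intervals of a ratio come from the exact 95% Clopper-Pearson interval for the part of a gene's counts found in the IL-17A library (scipy 1.17.1). Intervals and the floor of 3 counts cover counting error only, and they treat reads as independent. Amplified reads counted with no molecular identifier are not independent, so the intervals can be too narrow even for counting error. The calculation was tested on simulated data drawn with counting error only. That test checks the arithmetic and cannot speak to variation between cultures or to reads that are not independent. Measured genes had at least 50 summed counts, and a call was 2-fold, a rule of size.

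All 10 members are named, with every measured gene of their families, every gene of the interferon-gamma signalling list but 1, which is not reported here, and up to 4 measured genes of each other list with the largest absolute log2 ratio. Of the marker lists only some of these are given. Fgl2 is named as well, as the 1 interferon-gamma response gene past 2-fold downward. The members and lists were chosen with earlier results of these data known. Promoters came from RefSeq, and exon lengths and transcripts from GENCODE M21. Promoter windows of Gbp9 and Iigp1 were not used here. Any window on chromosome 18, where Iigp1 lies, was left out for members and lists, but not for the share over all windows. Alternatives were 3 other scalings with DESeq2 1.42.0 among them, other minimums and limits, a prior count, another gene length and sums with related genes.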

Additional observations from a re-analysis of the deposited data

How the results depend on the processing

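With total-count, upper-quartile and DESeq2 median-of-ratios scaling and with a prior count of 2, the same 5 members stood at least 2-fold higher, and their log2 ratios ranged from 3.52 to 3.58 for Gbp2, 3.999 to 4.404 for Gbp5, 1.82 to 1.89 for Gbp9, 1.72 to 1.78 for Ifi47 and 1.17 to 1.31 for Gbp3, whose lowest value was its sum with Gbp7. No called member changed sign under any alternative run, but these runs could hardly have changed one. Limits and minimums alter no ratio, and TMM moved the log2 ratio of library sizes by only -0.068 from total counts. The sums of Gbp2 with Gbp2b and of Gbp9 with Gbp8 added 0 counts. A minimum of 200 summed counts left 3 members higher, Gbp2, Gbp3 and Ifi47, because Gbp5 and Gbp9 fell below it. A limit of 1.5-fold gave 7 and of 3-fold gave 4, and 0 were lower at either; the shares of all measured genes at these limits and minimums stand beside the members' counts in the main text. At 1.5-fold, 7 genes of interferon-gamma signalling were higher, 5 type I interferon-stimulated genes were lower and 1 other GTPase gene, Gm4951, was lower. At 3-fold, 6 interferon-gamma response genes were higher and 0 type I interferon-stimulated genes lower. A minimum of 200 left 1 of these lower, and no minimum gave 2 other GTPase genes higher, Gbp6 and Gm12185, the latter from 0 to 7 counts.

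The sums with the gene sharing most stretches of 50 bases were chosen after seeing the data, in place of sums with the gene of most identical protein, which were not run. No paired analysis was possible because each group held 1 library, and for the same reason none was left out. The ratio of Gbp5 rests on 6 vehicle counts, and variation between cultures was not measured.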
